A study of Glycine max with 4 samples.

Results

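The sites described here are the places on soybean chromosomes 4 and 6 where DNA was enriched by an antibody against the protein encoded by GLYMA.07G038400. They were chosen by chromosome name alone, from the peak list of each ChIP replicate. Chromosome 4 held 1470 of the 31090 peaks of replicate 1 and 1234 of the 25502 peaks of replicate 2. Chromosome 6 held 1826 and 1520 peaks. Shared sites are the replicate 1 peaks with an overlap of 1 bp or more with any replicate 2 peak. There were 1064 shared sites on chromosome 4 and 1320 on chromosome 6, together 2384 (10.6%) of the 22386 of the whole series.

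The material was embryos of the cultivar Williams 82 at early maturation, taken from seeds of 6 to 7 mm. In chromatin immunoprecipitation with sequencing (ChIP-seq), DNA fixed to a protein is pulled down with an antibody and sequenced. Here 2 ChIP samples, pulled down with an antibody against a peptide of residues 188 to 202 of the protein, stood against 2 input samples of total chromatin that saw no antibody. All plants grew in a greenhouse, and the labels name no transgene and no treatment. A pull-down without the protein was not analysed here, so DNA that the antibody recovers for another reason cannot be told apart from bound DNA. The deposited peaks bear the name GRF5, left without an explanation in the labels.

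In plant biology GRF commonly means growth-regulating factor, a family of DNA-binding transcription factors known for promoting cell proliferation in young organs. The early maturation stage is the time when a soybean embryo turns from growth to the storage of protein and oil. Soybean is an ancient polyploid. Large parts of its genome, including arms of chromosomes 4 and 6, exist in duplicate, and the duplicates have kept many of their genes. Its chromosomes are gene-rich towards both ends and rich in repeats around the centromere.

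Each site has a fold enrichment, which is the ChIP signal at the summit over the background of the peak caller, as the authors deposited it. The number of overlapping ChIP fragments at a summit and the background behind it were recovered from the deposited fold and p-value. On chromosome 4 the median peak rested on 34 fragments in replicate 1 and on 26 in replicate 2, and on chromosome 6 on 33 and 26. The median backgrounds were 4.30 and 2.98 fragments on chromosome 4, and 4.40 and 2.98 on chromosome 6. These medians differed little between the 2 chromosomes within a replicate. Only called peaks enter them, so they do not show whether read depth was alike over the 2 chromosomes. Both samples cover both chromosomes, and an exact sign-flip test over 2 replicates cannot go below p = 0.5. Differences are given instead beside the same difference in each replicate's own list, with its SD (n = 2). The labels number the replicates br1 and br2 and do not say whether they came from separate plants, so this spread may be technical.

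Chromosome 4 was the sparser of the pair. Shared sites numbered 20.3 per Mb on chromosome 4 and 25.7 per Mb on chromosome 6. In replicate 1 the densities were 28.1 peaks per Mb on chromosome 4 and 35.6 on chromosome 6, and in replicate 2 they were 23.6 and 29.6. The difference, chromosome 4 minus chromosome 6, was −6.78 ± 1.03 peaks per Mb (SD, n = 2), larger than the spread between replicates. That spread includes the larger peak number of replicate 1. Among the 20 chromosomes of the assembly, chromosome 4 ranked 15th and chromosome 6 ranked 6th in density of shared sites. The other 18 chromosomes ranged from 17.7 to 35.3 shared sites per Mb with a median of 22.7, so both densities fell within that range. Each length ran to the end of the chromosome's last peak in either list, at 52347817 on chromosome 4 and 51303644 on chromosome 6.

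**Figure D1:**
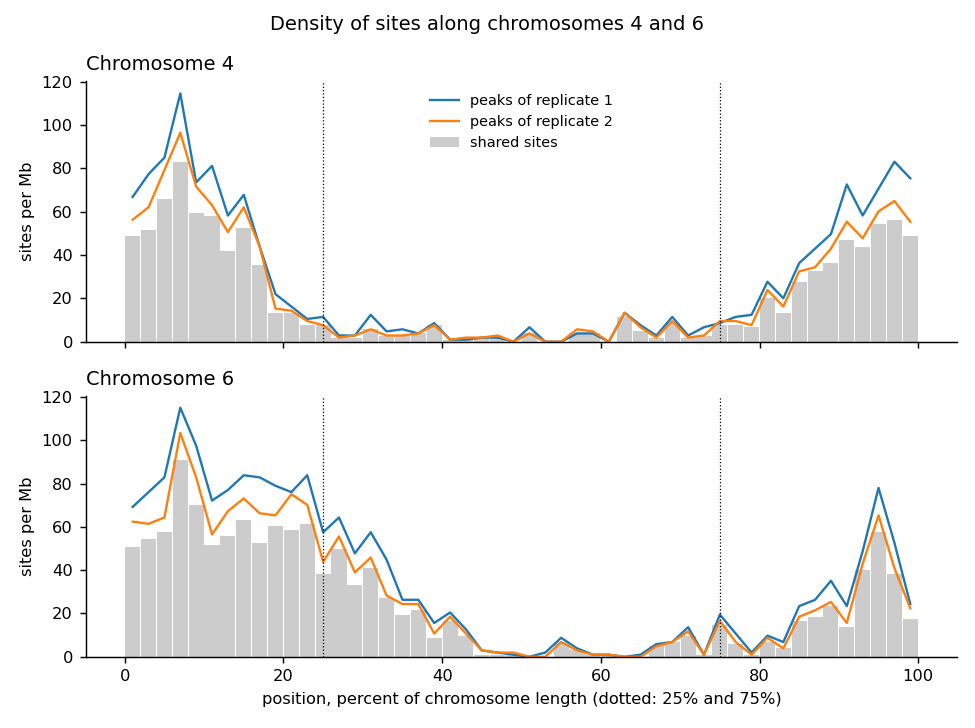
Sites per Mb in bins of 2% of the length of chromosome 4 (top) and chromosome 6 (bottom), for the peaks of each ChIP replicate (lines) and the shared sites (grey bars). Chromosome 4 was dense at both ends and nearly empty between them, and chromosome 6 stayed dense far beyond the first 25% of its length.

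Nearly all sites of chromosome 4 lay towards its ends, and most of those of chromosome 6 towards its start. Centromere positions were not used here, so each chromosome was divided by length into its first 25%, its central 50% and its last 25%, and a site was placed by its summit. The first 25% of chromosome 4 held 560 shared sites (52.6% of that chromosome), its last 25% 418 (39.3%) and its central 50% only 86 (8.08%). On chromosome 6 the first 25% held 762 (57.7%), the last 25% 255 (19.3%) and the central 50% 303 (23.0%). Chromosome 6 thus held the larger number at the first end and chromosome 4 at the last end.

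In the first 25%, chromosome 4 had 42.8 shared sites per Mb, against 59.4 on chromosome 6. The replicates gave 57.8 and 50.3 peaks per Mb on chromosome 4 and 81.5 and 69.3 on chromosome 6. The difference was −21.3 ± 3.25 peaks per Mb (SD, n = 2). In the last 25% the order was the other way round, with 31.9 shared sites per Mb on chromosome 4 and 19.9 on chromosome 6. The replicates gave 45.2 and 36.5 peaks per Mb on chromosome 4 and 27.8 and 22.5 on chromosome 6, a difference of 15.7 ± 2.36 (SD, n = 2). The central 50% was emptier on chromosome 4, with 3.29 shared sites per Mb, than on chromosome 6, with 11.8. There the difference was −10.8 ± 1.61 peaks per Mb (SD, n = 2). All 3 differences exceeded the spread between replicates, which includes the larger peak number of replicate 1 and is no test. As ratios of chromosome 4 to chromosome 6 they were 0.72, 1.61 and 0.28 for the first 25%, last 25% and central 50%. Each replicate alone gave a ratio of 1.63 in the last 25% and of 0.28 in the central 50%.

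Within chromosome 4 the 2 outer zones together held 37.4 shared sites per Mb and the central 50% 3.29, a ratio of 11.4. This ratio was 11.1 in replicate 1 and 11.6 in replicate 2. Chromosome 6 had 39.6 shared sites per Mb in its outer zones and 11.8 in its central 50%, a ratio of 3.36, with 3.31 and 3.43 in the replicates. In both replicates chromosome 4 had the highest ratio of the 20 chromosomes and the lowest central density, as it did among shared sites. Chromosome 6 ranked 16th in the ratio and 5th in central density. On the other 18 chromosomes the ratio of outer to central density ran from 0.839 to 8.35, with a median of 4.63.

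The 2 ends of 1 chromosome were more alike on chromosome 4 than on chromosome 6. First over last 25% gave a ratio of 1.34 on chromosome 4, with 1.28 and 1.38 in the replicates. On chromosome 6 it gave 2.99, with 2.93 and 3.09 in the replicates, the 2nd highest of the 20 chromosomes. The first 25% of chromosome 6 ranked 3rd of 20 among first 25% zones, and its last 25% ranked 19th. On the other 18 chromosomes the ratio ran from 0.0745 to 4.40.

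**Figure D2:**
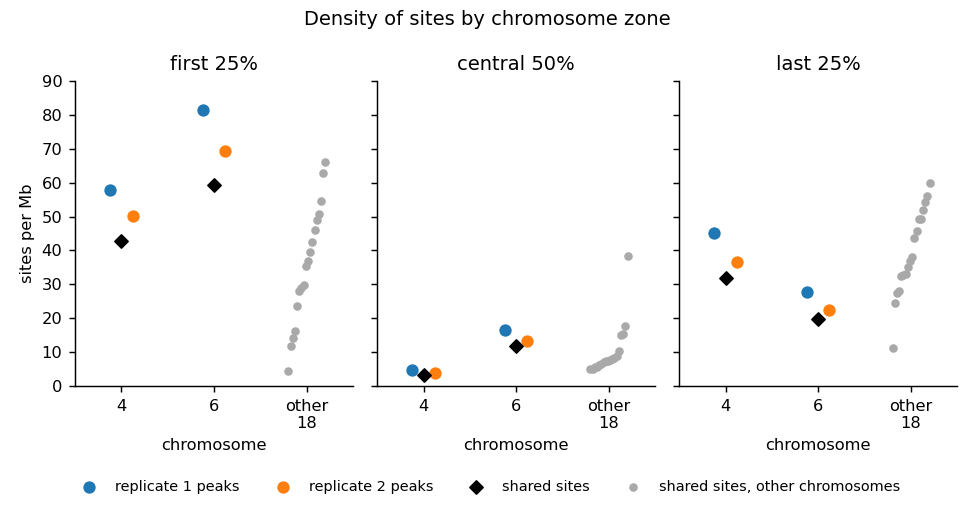
Sites per Mb in the first 25%, central 50% and last 25% of chromosomes 4 and 6, for the peaks of replicate 1 and replicate 2 and for shared sites, beside the shared sites of the other 18 chromosomes (grey points, sorted). Chromosome 4 lies below chromosome 6 in the first 25% and central 50% and above it in the last 25%.

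Windows of 1 Mb showed where the dense parts ended. The densest window of both chromosomes was the one at 3 to 4 Mb, with 85 shared sites on chromosome 4 (117 and 101 peaks in the replicates) and 91 on chromosome 6 (113 and 106 peaks). The median complete window held 6 shared sites on chromosome 4 and 16 on chromosome 6. Windows with 50 or more shared sites numbered 8 of 52 on chromosome 4, which held 47.1% of the sites in its complete windows, and 14 of 51 on chromosome 6, which held 63.2%. From the start, every window of chromosome 4 held at least 10 shared sites for 10 Mb, against 22 Mb on chromosome 6. From the other end such windows ran for 10 Mb on chromosome 4 and for 8 Mb on chromosome 6. Between these dense stretches lay 32 Mb with 4.19 shared sites per Mb on chromosome 4 and 21 Mb with 3.57 on chromosome 6.

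The first 25% of chromosome 6 ended at 12.8 Mb, inside its long dense stretch. With the dense stretches as ends, the ratio of their density to that of the rest was 11.0 on chromosome 4 and 11.5 on chromosome 6. These stretches were set by the densities themselves after the windows had been seen, so a high ratio is built into them and the values are a description only. With fixed limits the ratio stayed lower on chromosome 6, at 10.6 on chromosome 4 and 2.85 on chromosome 6 with ends of 20%, and at 9.64 and 5.67 with ends of 33%. On chromosome 4 the window at 9 to 10 Mb held 39 shared sites, the next held 0, and the one after it 20. Chromosome 6 had 52 shared sites in the window at 13 to 14 Mb, between 29 and 37 in each of the next 4 windows and between 10 and 18 in each of the 4 after those.

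The empty window of chromosome 4 was part of a gap of 1.25 Mb between summits at 9904128 and 11156462. No peak of either replicate lay in it, and the replicates placed its edges within 43 bp of each other. It was the 4th longest gap of chromosome 4 among shared sites, and the only one among the 5 longest outside the central 50%. The longest gap of chromosome 4 spanned 2.45 Mb, from 26898965 to 29348416, and unshared peaks of replicate 1 shortened it to 2.22 Mb in that list. Chromosome 6 had its longest gap, of 3.70 Mb, from 30790195 to 34491097. In replicate 1 a single peak at 32897105 divided this gap of chromosome 6, which left 2.11 Mb as the longest stretch of chromosome 6 without a peak in that list. Windows without any peak in either list numbered 3 on each chromosome. How much of these gaps is sequence to which reads cannot be aligned was not tested, since the genome sequence was not used here.

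Counted in 13 windows of 1 Mb from the start, the shared sites of chromosomes 4 and 6 had a Pearson correlation of 0.58 and a Spearman correlation of 0.46. The peaks of replicate 1 gave 0.57 and 0.38, and those of replicate 2 gave 0.51 and 0.22. With the first ends of the other 18 chromosomes, chromosome 4 had correlations from −0.57 to 0.82, and 12 of them were higher than that with chromosome 6. Chromosome 6 had correlations from −0.38 to 0.68 with the same 18, of which 1 was higher than that with chromosome 4. From the last ends inward the correlation between chromosomes 4 and 6 was 0.78, and 7 of the other 18 chromosomes had a higher one with chromosome 4 and 2 with chromosome 6. In the replicates 11 and 9 of the 18 had a higher one with chromosome 4. These are descriptions across windows that all come from the same 2 libraries. Which arm of chromosome 4 is the duplicate of which arm of chromosome 6 was not analysed here.

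Both chromosomes had about the same share of sites with a close neighbour. Another shared site lay within 2 kb of 30.5% of the shared sites of chromosome 4 (325 of 1064, 95% Wilson interval 27.9 to 33.4%) and of 31.9% of those of chromosome 6 (421 of 1320, 29.4 to 34.5%). The share over all shared sites of the series was 30.1%. In replicate 1 the shares were 39.5% on chromosome 4 and 38.3% on chromosome 6, beside 37.2% over the whole list. Replicate 2 gave 36.3% and 36.6%, beside 34.1%. The difference between the chromosomes changed sign between the replicates, at 0.45 ± 1.12 percentage points (SD, n = 2), and was not larger than their spread. The intervals treat sites as independent. A site within 2 kb of another brings that other into the count, so the intervals are too narrow even for counting error.

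The median distance to the nearest shared site was 4206 bp on chromosome 4 and 4026 bp on chromosome 6. The median gap from one summit to the next was 12707 bp on chromosome 4 and 10219 bp on chromosome 6. In the first 25% the median nearest distance was 4005 bp on chromosome 4 and 3365.5 bp on chromosome 6. In the last 25% it was 4469 bp and 4944 bp. In the central 50% the shared sites gave 17186 bp on chromosome 4 and 4704 bp on chromosome 6. The full lists did not show a difference of that size, with 4206 bp on chromosome 4 and 3592 bp on chromosome 6 in replicate 1, and 5744.5 and 4498 bp in replicate 2. Of the shared sites, 17.4% of the 86 central sites of chromosome 4 (10.9 to 26.8%) had a neighbour within 2 kb, against 31.4% (26.4 to 36.8%) of the 303 central sites of chromosome 6. In the full lists these shares were 28.9% on chromosome 4 and 36.1% on chromosome 6 in replicate 1, and 26.5% and 34.1% in replicate 2. In the last 25% the share was 29.7% (25.5 to 34.2%) on chromosome 4 and 22.7% (18.03 to 28.3%) on chromosome 6. These intervals by zone also treat neighbours as independent sites, so they are too narrow and are no test between chromosomes or zones. On chromosome 6 the last 25% was denser than the central 50% but had the smaller share of sites with a neighbour, also in each replicate, with 29.4% against 36.1% in replicate 1 and 27.4% against 34.1% in replicate 2. The density of that central 50% is a mean over uneven windows, with 52 shared sites at 13 to 14 Mb and 0 at 31 to 32 Mb. The part of this unevenness in the share with a neighbour was not tested.

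**Figure D3:**
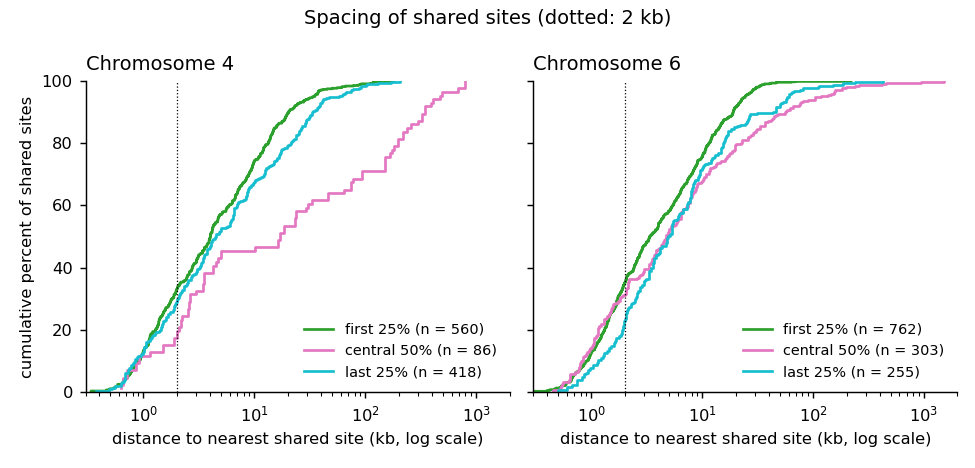
Cumulative percent of shared sites against the distance to the nearest other shared site in kb (log scale), by zone, for chromosome 4 (left) and chromosome 6 (right). Among shared sites the central 50% of chromosome 4 has a median of 17186 bp and the other zones have medians between 3365.5 and 4944 bp, whereas in the full peak lists, not drawn, the median of that zone is 4206 bp in replicate 1 and 5744.5 bp in replicate 2.

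Runs of sites with steps of at most 2 kb were mostly pairs. Chromosome 4 had 111 pairs and 30 runs of 3 or more shared sites, and chromosome 6 had 157 pairs and 33 such runs. Runs of 4 or more numbered 9 on chromosome 4 and 5 on chromosome 6. Replicate 1 alone gave 19 such runs on chromosome 4 and 16 on chromosome 6, and replicate 2 gave 15 and 14. Runs of the other chromosomes were not counted here, so these numbers cannot be called high or low for the series.

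The longest runs of chromosome 4 held 5 shared sites, and there were 4 of them, all in the first 4 Mb. The one with the highest median lay at 543903 to 551058, with 5 sites spaced by 1432 to 1940 bp. Their folds in replicate 1 were 6.94, 9.48, 9.72, 13.7 and 13.9, and in replicate 2 they were 6.59, 8.44, 9.22, 16.8 and 10.0. The last 2 sites of this run were the strongest in both replicates. A second run of 5, at 3158964 to 3163345, was built around 1 dominant site. Its first site had folds of 48.8 and 50.9 in the replicates, and its other 4 sites had lower-of-2 folds between 5.77 and 6.80.

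The longest run of shared sites on chromosome 6 held 7 sites within 8.33 kb, at 7192430 to 7200755. In the full list of replicate 1 the longest run had 8 peaks on chromosome 4 and 7 on chromosome 6, and in that of replicate 2 it had 5 and 7. The folds of the 7 shared sites were 6.81, 6.30, 20.2, 8.30, 4.37, 21.5 and 10.7 in replicate 1, and 6.35, 5.13, 19.6, 9.98, 7.01, 19.8 and 14.3 in replicate 2. The 2 folds near 20, at the third and the sixth site, were the highest of the run in both replicates. The next run in rank, of 4 sites at 13371056 to 13374493, had folds of 14.7, 10.5, 13.4 and 6.64 in replicate 1 and of 15.3, 9.73, 15.0 and 9.54 in replicate 2.

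The median lower-of-2 fold on chromosome 4 was 6.80 in runs of 3 or more (103 sites), 6.63 in pairs (222 sites) and 6.27 at lone sites (739 sites). On chromosome 6 it was 6.50 (107 sites), 6.31 (314 sites) and 6.05 (899 sites). In replicate 2 alone the order differed on chromosome 4, with a median fold of 7.03 in runs of 3 or more, 7.29 in pairs and 7.14 at lone sites. These shifts were small beside the spread among sites, whose interquartile range ran from 4.88 to 9.59 on chromosome 4.

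Peaks of chromosome 4 were a little stronger than those of chromosome 6. The median lower-of-2 fold of shared sites was 6.44 (interquartile range 4.88 to 9.59) on chromosome 4 and 6.16 (4.68 to 9.09) on chromosome 6. In replicate 1 the median folds were 6.53 on chromosome 4 and 6.19 on chromosome 6, and in replicate 2 they were 6.56 and 6.36. The difference of 0.27 ± 0.096 (SD, n = 2) exceeded the spread between replicates. It was small beside the spread among sites, whose interquartile ranges overlapped almost entirely. Chromosome 6 had the lowest median fold of all 20 chromosomes in replicate 1 and the second lowest in replicate 2. Chromosome 4 ranked 4th and 6th. Among shared sites chromosome 6 ranked only 16th and chromosome 4 ranked 7th. The lowest values lay close together, with 6.19 on chromosome 6 and 6.22 on chromosome 5 in replicate 1. In replicate 2 chromosomes 6 and 9 both had 6.36.

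Zone by zone, the first 25% had median lower-of-2 folds of 6.52 on chromosome 4 and 6.13 on chromosome 6. The last 25% zones had 6.34 and 5.88, and the central zones 6.38 and 6.30. Over all peaks of chromosome 4, the central 50% had a median fold of 6.37 in replicate 1, below the 6.66 of the first 25% and the 6.47 of the last 25%, and of 6.63 in replicate 2, above the 6.59 and 6.52 of those ends. The order of the zones was therefore not the same in both replicates. Peaks of the central 50% had a lower median background in replicate 1, of 3.71 fragments, against 4.40 fragments in the 2 outer zones together, and the part of this in the folds was not tested. Folds of 10 or more in both replicates were reached by 22.7% of the shared sites on chromosome 4 (241 sites) and by 21.4% on chromosome 6 (283 sites), beside 22.5% in the whole series. Folds of 20 or more were reached by 43 sites (4.04%) and 47 sites (3.56%), beside 4.07%. Both shares lay near those of the series.

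Widths were similar as well. In replicate 1 the median peak was 392 bp wide on chromosome 4 and 379 bp on chromosome 6, and in replicate 2 it was 321 and 314 bp. The difference was 10.0 ± 4.24 bp (SD, n = 2). Shared sites had median replicate 1 widths of 443 bp on chromosome 4 and 435.5 bp on chromosome 6, and median replicate 2 widths of 343 and 331 bp. Wide sites of 800 bp or more in replicate 1 made up 8.55% of the shared sites of chromosome 4 (91 sites) and 6.67% of those of chromosome 6 (88 sites), beside 6.97% in the series. In the first 25% of chromosome 4 the share was 10.2% (57 sites), against 8.27% (63 sites) on chromosome 6. In the last 25% it was 6.70% (28 sites), against 3.53% (9 sites). By replicate 2 width only 25 sites of chromosome 4 and 26 of chromosome 6 were this wide, beside 2.38% of the shared sites of the series.

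Wider sites were stronger sites. On chromosome 4 the median replicate 1 width was 340.5 bp for lower-of-2 folds under 5, 443 bp for folds of 5 to 10, 578 bp for 10 to 20 and 683 bp for 20 or more. Chromosome 6 gave 335, 435, 569.5 and 721 bp. A peak caller reports a wider region where more of the flank passes its threshold, so width is not independent of strength. Shared sites covered 522 kb (0.998%) of chromosome 4 and 632 kb (1.23%) of chromosome 6. In the central 50% of chromosome 4 they covered 0.156% of the length, and in the first 25% of chromosome 6 they covered 2.90%.

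**Figure D4:**
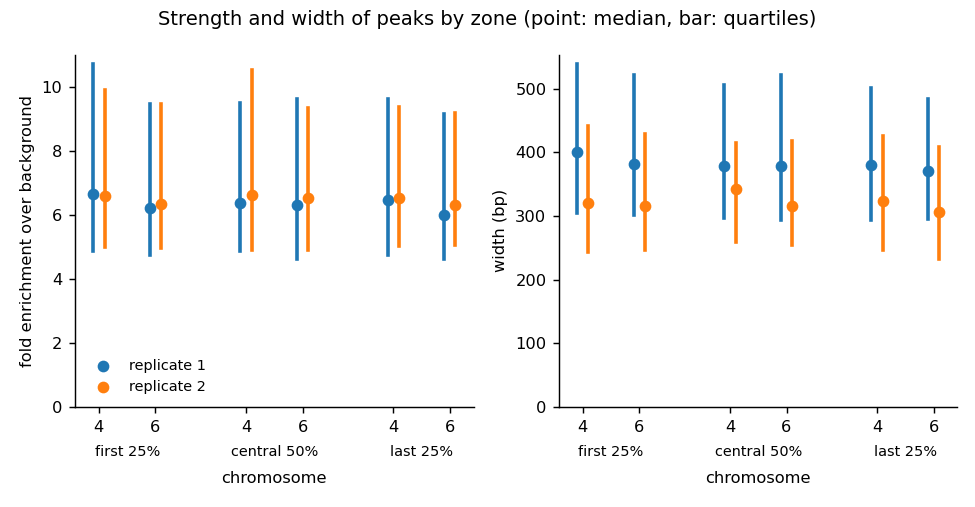
Median (point) and quartiles (bar) of fold enrichment (left) and width in bp (right) of all peaks in each zone of chromosomes 4 and 6, by ChIP replicate. Medians of fold lie between 5.99 and 6.66 in all zones, and replicate 1 peaks are wider than replicate 2 peaks throughout.

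Ranked by lower-of-2 fold, the first 5 sites of chromosome 4 and the first 5 of chromosome 6 all lay in the first 25% of their chromosome. On chromosome 4 the first was the site at 8858243 to 8858972, with folds of 51.1 and 60.5 in the replicates (55.8 ± 6.63, SD, n = 2). Its summit held 240 ChIP fragments in replicate 1 (exact Poisson 95% interval 211 to 272), and the replicate 2 summit held 209 (182 to 239). The nearest other shared site was 14177 bp away. The second, at 3158964 to 3159793, had folds of 48.8 and 50.9 and opened the run of 5 sites that ends at 3163345. The means of the first and the second, 55.8 and 49.9, differed by less than the SD of the first, 6.63, but by more than that of the second, 1.49. Within each replicate the first had the higher fold.

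The third site of chromosome 4, at 5873663 to 5874530, had folds of 40.4 and 44.5 and summits 3 bp apart. The fourth, at 11165327 to 11166385, had folds of 37.6 and 39.6 (38.6 ± 1.42, SD, n = 2). It lay 9652 bp from the site that closes the 1.25 Mb gap, with summits 1 bp apart in the replicates. The fifth, at 4481963 to 4482509, had folds of 38.8 and 36.5. The means of the fourth and the fifth, 38.6 and 37.7, differed by less than their SDs of 1.42 and 1.61.

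On chromosome 6 the first was the site at 6944169 to 6945427, with folds of 51.1 and 44.2 (47.7 ± 4.93, SD, n = 2). Its summit held 250 fragments (220 to 283) in replicate 1, and the replicate 2 summit held 175 (150 to 203). The site at 2501109 to 2501815 had folds of 41.0 and 45.3, that at 5528873 to 5529610 had 36.7 and 45.8, and that at 4042526 to 4043359 had 44.1 and 36.6. The fifth, at 3590730 to 3591692, had folds of 35.5 and 38.2. From the second to the fourth, means of 43.2, 41.2 and 40.3 differed by less than the SDs of 3.02, 6.40 and 5.28, so their order was not resolved. The means of the first and the second, 47.7 and 43.2, differed by less than the SD of the first, 4.93, but by more than that of the second. Within replicates their order was not the same, since the second had the higher fold in replicate 2, 45.3 against 44.2.

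Lower-of-2 folds of 20 or more were reached by 20 sites in the first 25%, 4 in the central 50% and 19 in the last 25% of chromosome 4, and by 31, 8 and 8 sites on chromosome 6. As shares of the shared sites of each zone these were 3.57, 4.65 and 4.55% on chromosome 4. On chromosome 6 they were 4.07, 2.64 and 3.14%, beside 4.07% in the whole series. The strongest site of the last 25% had folds of 37.7 and 35.2 on chromosome 4, at 51190836 to 51191415, and of 40.3 and 33.7 on chromosome 6, at 47208361 to 47209103. In the central 50% the strongest site of chromosome 4, at 39007198 to 39007783, had folds of 29.6 and 27.9. The strongest of chromosome 6, at 28405911 to 28406511, had folds of 38.4 and 29.6 and stood alone, with 458073 bp to the nearest other shared site. Its replicate 1 background was 3.11 fragments, the lowest value among the peaks of that replicate.

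Some of the widest shared sites had low folds or differed in width between the replicates. On chromosome 6 the peak at 3090596 to 3092960 was 2365 bp wide in replicate 1 and 953 bp in replicate 2, with folds of 25.2 and 48.4. Its background was 8.80 fragments in replicate 1 and 2.59 in replicate 2, while its pileups were 246 and 173 fragments. In the central 50% of chromosome 6, the peak at 13966957 to 13968284 was 1328 bp wide in replicate 1 and 226 bp in replicate 2, with folds of only 6.11 and 4.68. The widest of chromosome 4, at 8037179 to 8038746, measured 1568 and 736 bp and had folds of 36.0 and 23.8. In its central 50% the widest, at 22602969 to 22604283, measured 1315 and 825 bp, had folds of 18.9 and 21.8, and lay 795498 bp from the nearest other shared site. In the last 25% the widest site of chromosome 4, at 51923643 to 51924950, measured 1308 and 1243 bp, with folds of 27.9 and 30.7. That of chromosome 6, at 44643302 to 44644415, measured 1114 and 940 bp, with folds of 46.3 and 28.8.

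Over all peaks, the share found again in the other replicate was nearly the same on both chromosomes and near that of the series. Of the replicate 1 peaks, 72.4% on chromosome 4 (1064 of 1470, 95% Wilson interval 70.0 to 74.6%) and 72.3% on chromosome 6 (1320 of 1826, 70.2 to 74.3%) were shared, beside 72.0% in the whole list. Of the replicate 2 peaks, 88.8% on chromosome 4 (86.9 to 90.5%) and 89.0% on chromosome 6 (87.3 to 90.5%) overlapped a replicate 1 peak, beside 89.8%. Peaks under 5-fold in replicate 1 were recovered in 39.3% of cases on chromosome 4 (34.7 to 44.0%) and in 42.7% on chromosome 6 (38.8 to 46.8%). The whole list gave 40.3% in this class. From 10-fold on, all 374 peaks of chromosome 4 and 410 of 411 of chromosome 6 were recovered, beside 99.9% in the whole list (7575 of 7585). In the sparse central 50% of chromosome 4, 86 of 121 replicate 1 peaks (71.1%, 62.4 to 78.4%) were shared, within the range of the denser zones, which had shares of 70.6 to 74.0%.

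Shared sites had similar folds in the replicates on both chromosomes. Across sites, which are not independent replicates, Spearman's correlation of the folds was 0.745 on chromosome 4 and 0.722 on chromosome 6. The 2 folds of a site differed by no more than 2 times for 95.9% of shared sites on chromosome 4 and for 94.8% on chromosome 6, beside 95.1% in the series. Replicate 1 had the higher fold at 62.0% of sites on chromosome 4 and at 61.4% on chromosome 6, beside 61.5%. Summits lay a median of 31 bp apart on chromosome 4 and 30 bp on chromosome 6. They were within 100 bp at 93.0% of shared sites on chromosome 4 and at 92.1% on chromosome 6, beside 92.0% in the series. All these shares lay near those of the series.

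**Figure D5:**
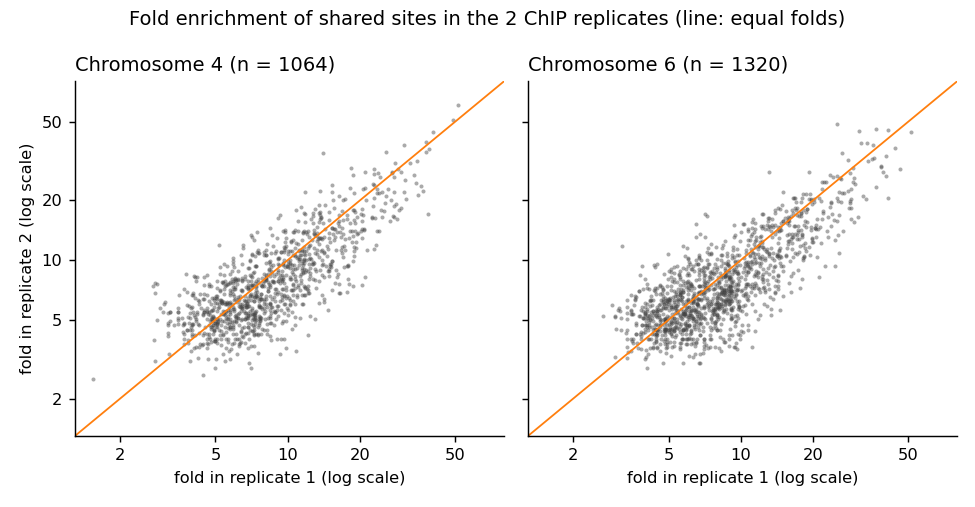
Fold enrichment of each shared site in replicate 1 (x axis) and replicate 2 (y axis), both on log scales, for the 1064 sites of chromosome 4 and the 1320 of chromosome 6, with the line of equal folds. On both chromosomes the points follow the line and lie slightly more often below it.

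Peaks whose recovered background was over 20 fragments numbered 1 in replicate 1 and 5 in replicate 2 on chromosome 4, and 0 and 2 on chromosome 6. In the whole lists such peaks made up 0.0161% and 0.416%. The site at 49313108 to 49313334 on chromosome 4 was the only one of these found in both replicates, with folds of 1.54 and 2.53 and backgrounds of 93.3 and 47.3 fragments.

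A replicate 1 peak covered 2 replicate 2 peaks at 34 shared sites (3.20%) of chromosome 4 and at 35 (2.65%) of chromosome 6, beside 2.39% in the series. A replicate 2 peak covered 2 replicate 1 peaks in 2 cases on each chromosome, beside 0.110% of the peaks of replicate 2 in the series.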

How the data were processed

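Reads were aligned with Bowtie 0.12.7 and peaks called with MACS2, per the submitters' processing notes. No genome build and no MACS2 version is given in the sources used here. The authors deposited 1 peak list per ChIP replicate, and the inputs have no values of their own in these lists. Per the deposited narrowPeak columns, each peak has a fold (linear ratio of ChIP to background), −log10 p-value and q-value, a score of about 10 times the −log10 q, and a summit position. Fragments k and background λ were recovered by solving (k + 1)/(λ + 1) = fold with the upper Poisson tail equal to the deposited p-value. The largest deviation from a whole number was 0.58% of a step. Depth is known only in this way, and read totals were not used. PCR duplicates are not independent molecules, so intervals cover counting error only. Those of the share with a neighbour also treat neighbouring sites as independent and are too narrow. Methods were tested on simulated data.

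A shared site takes its position from replicate 1 and its second fold from the overlapping replicate 2 peak of nearest summit. The rule for named sites took, per chromosome, the 5 highest lower-of-2 folds, the strongest and widest site of each zone, the densest window, the longest gap, the longest run, the strongest unshared peak of each replicate and the extreme fold ratios. Sites and measures were chosen with earlier results of these data known. The dense stretches, the second run of each chromosome and the gap at 9904128 on chromosome 4 were singled out after their values were seen. The gene table at hand is of the assembly Glycine_max_v4.0, which could not be matched to that of the peak lists, so genes and sequences at the sites were not analysed here. Python 3.11.15, numpy 2.4.6, scipy 1.17.1, pandas 2.3.3 and matplotlib 3.10.9 were used. Coordinates are 1-based.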

Additional observations from a re-analysis of the deposited data

How the results depend on the processing

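The lower density of chromosome 4 and the denser outer zones and first 25% of both chromosomes kept their direction in every alternative tested. So did the higher median fold and width of chromosome 4, taken over the whole chromosome and not by zone. The small differences in the share with a neighbour and in the share recovered did not. The dense stretches as ends were chosen after seeing the data. Differences are chromosome 4 minus chromosome 6, and the cause of a change was not tested.

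With a −log10 q of at least 10, which leaves fewer peaks, density differed by −3.09 sites per Mb, first minus last 25% was 8.02 on chromosome 4 and 26.7 on chromosome 6, the ratio of outer to central density on chromosome 4 was 10.95, and median fold and width differed by 0.52 and 13 bp. The difference in the share with a neighbour turned to 2.22 points, against −1.35 over all shared sites. With folds of at least 5 these were −3.03, 8.71 and 26.6 sites per Mb, a fold difference of 0.43, a difference in neighbours of 0.94 points and in recovery of 0.54 points. Neighbours within 1 kb gave 1.09 points. Reciprocal overlap of 50% gave −3.29 points for neighbours and −0.28 points for recovery. Summits within 100 bp gave 9.55 sites per Mb for first minus last 25% of chromosome 4, ratios of 10.8 and 3.27 on chromosomes 4 and 6, and 0.69 points for recovery. The −log10 q in place of fold gave a difference of medians of 1.49.

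Outer ends of 20% gave 12.99 sites per Mb for first minus last on chromosome 4 and ratios of 10.6 and 2.85 on chromosomes 4 and 6. Ends of 33% gave 8.10 and ratios of 9.64 and 5.67. Cut at the midpoint, chromosome ends gave 5.04 on chromosome 4 and 28.1 on chromosome 6. Dense stretches as ends gave 15.0 and 18.3, with ratios of 11.0 and 11.5.

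Single replicates gave a range of −7.51 to −6.05 for density, 12.6 to 13.8 and 46.9 to 53.6 for first minus last 25% of chromosomes 4 and 6, 7.0 to 13 bp for width, and −0.34 to 1.24 points for neighbours, which changed sign with replicate 1 peaks alone. Recovery of replicate 2 peaks differed by −0.20 points. No paired analysis was possible because ChIP samples could not be set against inputs, which have no values of their own here, while differences between the chromosomes were taken within each replicate. The low fragment counts of weak peaks limit how well their absence from the other replicate can be read.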

Other observations

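Among peaks without a counterpart in the other replicate, the highest fold per chromosome and replicate lay between 7.26 and 11.7. On chromosome 4 the strongest was at 9560688 to 9561077, with a fold of 9.86 in replicate 1 on 42 fragments (95% exact Poisson interval 30.3 to 56.8), and the nearest replicate 2 summit lay 23940 bp away. In replicate 2 it was the peak at 7491830 to 7492147, with a fold of 9.07 on 29 fragments (19.4 to 41.6). On chromosome 6 the strongest was at 10454954 to 10455350, with a fold of 11.7 in replicate 1 on 48 fragments (35.4 to 63.6), and a replicate 2 summit lay 1030 bp away. In replicate 2 the highest fold without a counterpart was 7.26, reached by 2 peaks of 23 fragments, at 41120358 to 41120571 and at 44414529 to 44414750.

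The shared sites with the most unlike folds had 18 to 24 fragments in 1 replicate. The site of chromosome 4 at 8264952 to 8265459 had folds of 10.8 and 3.47 on 67 and 18 fragments. At the other extreme of that chromosome, the site at 49545640 to 49545906 had folds of 2.80 and 7.67 on 24 and 30 fragments. The site of chromosome 6 at 5503140 to 5503627 had folds of 11.1 and 3.65 on 55 and 19 fragments. The one at 4301300 to 4301550 had folds of 3.21 and 11.8 on 22 and 38 fragments, with backgrounds of 6.16 and 2.31.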
